A study of Mus musculus with 4 samples.

Results

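The strongest one-gene promoter sites of Foxr2 were 706 stretches of the mouse genome, out of 11947 stretches bound in both replicates, and each came within 1 kb of the start of a single protein-coding gene. A site was a run of bases covered by peaks of both FOXR2 P53LoF replicates, and a peak counted where its fold enrichment was above 6, its length under 10000 bp and its overlap with any G34R control peak under 10 bp. Of the 11947 sites, 5925 came within 1 kb of the start of exactly 1 protein-coding gene. The 706 strongest were selected by fold alone, as those whose lower fold of the 2 replicates passed a limit lying between 16.4 (the highest value outside) and 16.8 (the lowest inside), and they made up 11.9% of the 5925 one-gene sites. They belonged to 706 different genes, 3.21% of the 22028 protein-coding genes annotated. The other 5219 one-gene sites serve below as the main comparison.

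Foxr2 binding was measured by CUT&RUN, in which an antibody steers a nuclease to a protein and the DNA cut free around it is sequenced. The antibody was directed at V5, a short peptide tag. The FOXR2 P53LoF samples (n = 2) came from a neurosphere line of a C57BL/6J tumour induced by in utero electroporation (IUE), in which a CAG promoter, active in most cell types, drove Foxr2 with V5 at its C-terminus together with GFP, and a guide RNA disrupted Trp53. The G34R control samples (n = 2) came from C57BL/6J lines of a separate IUE model without V5 and carried the genotype H3.3G34R, so the 2 groups differ in more than the tag. All samples were cross-linked with 0.1% formaldehyde for 1 minute. No source says whether replicates were separate cultures. The 2 FOXR2 P53LoF lists held 31909 and 38580 peaks and the control lists 308 and 124, and no read totals are given in them, so the depth behind a fold is described by the fragments at its summit.

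Foxr2 is a forkhead protein that is nearly silent in normal brain and is switched on in a class of brain tumours. Forkhead proteins bind AT-rich sites related to GTAAACA. Most promoters of broadly used genes have a different make-up: they are rich in GC and CpG, are free of nucleosomes just upstream of the start, and hold short sites close to the start for factors such as the ETS family (CCGGAAG), NRF1 (GCATGCGC), YY1 (AAGATGGC) and SP1 (GGGCGG). The E-box CACGTG is the site of MYC, MAX and their relatives and of the clock factors. The CARE TGATGCAA is the composite site of ATF4 and a C/EBP factor at genes of amino acid supply and stress.

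Sequences at the summits of some leading sites are shown first, as examples of what lies under the highest signal. They are windows reaching 100 bp to each side of the point midway between the 2 replicate summits, for 4 of the leading sites whose window holds no annotated UTR base (not every such window is shown, so they carry no count), in GRCm38 and 5′ to 3′ on the strand of the gene. Capitals mark an ETS core (CCGGAAG, or CTTCCGG where it is on the other strand) or an E-box. The windows are chr11:51688892-51689092 (minus strand) for 0610009B22Rik, chr11:74830533-74830733 (plus strand) for Mnt, chr11:48800080-48800280 (plus strand) for Rack1 and chr10:119240294-119240494 (minus strand) for Cand1.
0610009B22Rik summit: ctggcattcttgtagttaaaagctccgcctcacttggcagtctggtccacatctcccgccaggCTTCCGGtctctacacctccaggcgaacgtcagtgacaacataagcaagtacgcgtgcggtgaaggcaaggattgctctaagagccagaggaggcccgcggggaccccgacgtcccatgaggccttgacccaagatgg
Mnt summit: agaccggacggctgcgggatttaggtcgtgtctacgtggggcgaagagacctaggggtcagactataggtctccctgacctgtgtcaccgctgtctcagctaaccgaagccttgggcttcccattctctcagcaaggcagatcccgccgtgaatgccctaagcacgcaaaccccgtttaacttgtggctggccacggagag
Rack1 summit: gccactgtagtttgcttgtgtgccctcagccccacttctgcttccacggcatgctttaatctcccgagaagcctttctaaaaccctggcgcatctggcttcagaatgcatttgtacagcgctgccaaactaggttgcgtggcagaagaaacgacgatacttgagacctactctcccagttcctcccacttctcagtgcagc
Cand1 summit: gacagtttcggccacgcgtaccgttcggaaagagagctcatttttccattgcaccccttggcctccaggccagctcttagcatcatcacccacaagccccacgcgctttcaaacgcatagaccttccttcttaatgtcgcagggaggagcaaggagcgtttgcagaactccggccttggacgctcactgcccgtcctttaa
Over all 705 such midpoint windows on assembled chromosomes, 8.51% held an ETS core and 7.66% an E-box. The next sequences show promoters at the start itself, as the 150 bp that end at the base before the gene's start. They were picked for their motifs, as the first 6 genes by rank with an E-box there, and capitals mark E-boxes. Their places are chr7:25267554-25267703 (plus strand) for Cic, chr11:74830770-74830919 (plus strand) for Mnt, chr12:8921514-8921663 (plus strand) for Laptm4a, chr6:86526322-86526471 (minus strand) for Pcbp1, chr19:40588464-40588613 (minus strand) for Aldh18a1 and chr13:49681950-49682099 (plus strand) for Iars.
Cic upstream: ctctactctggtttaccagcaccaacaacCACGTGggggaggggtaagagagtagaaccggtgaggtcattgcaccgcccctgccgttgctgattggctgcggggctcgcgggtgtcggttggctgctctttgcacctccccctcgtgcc
Mnt upstream: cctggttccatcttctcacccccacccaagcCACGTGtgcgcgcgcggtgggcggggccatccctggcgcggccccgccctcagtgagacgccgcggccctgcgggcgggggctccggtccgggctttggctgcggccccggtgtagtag
Laptm4a upstream: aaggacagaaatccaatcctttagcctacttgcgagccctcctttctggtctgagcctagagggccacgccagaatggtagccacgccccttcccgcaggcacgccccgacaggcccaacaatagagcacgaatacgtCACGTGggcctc
Pcbp1 upstream: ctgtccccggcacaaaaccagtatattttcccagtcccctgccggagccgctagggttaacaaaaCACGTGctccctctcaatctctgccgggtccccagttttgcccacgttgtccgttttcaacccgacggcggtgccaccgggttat
Aldh18a1 upstream: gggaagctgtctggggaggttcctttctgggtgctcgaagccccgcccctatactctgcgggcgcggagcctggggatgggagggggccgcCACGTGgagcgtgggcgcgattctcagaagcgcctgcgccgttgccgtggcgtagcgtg
Iars upstream: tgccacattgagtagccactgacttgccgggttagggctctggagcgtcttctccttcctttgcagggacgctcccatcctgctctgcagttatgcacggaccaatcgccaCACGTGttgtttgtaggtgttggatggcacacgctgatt
The first 4 genes by rank with an ETS core in the same stretch follow, with ETS cores and E-boxes in capitals, at chr7:141447220-141447369 (plus strand) for Rplp2, chr3:138442943-138443092 (plus strand) for Adh5, chr11:6626068-6626217 (minus strand) for Tbrg4 and chr13:100730940-100731089 (minus strand) for Cdk7.
Rplp2 upstream: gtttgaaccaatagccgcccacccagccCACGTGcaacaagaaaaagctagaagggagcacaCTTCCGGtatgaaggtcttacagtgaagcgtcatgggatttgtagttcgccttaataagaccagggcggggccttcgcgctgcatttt
Adh5 upstream: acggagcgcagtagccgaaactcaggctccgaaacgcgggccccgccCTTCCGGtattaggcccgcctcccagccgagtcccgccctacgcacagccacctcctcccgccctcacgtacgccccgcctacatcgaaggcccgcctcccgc
Tbrg4 upstream: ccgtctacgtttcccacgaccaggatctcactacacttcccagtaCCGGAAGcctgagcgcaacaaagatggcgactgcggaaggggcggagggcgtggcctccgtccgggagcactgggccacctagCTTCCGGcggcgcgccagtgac
Cdk7 upstream: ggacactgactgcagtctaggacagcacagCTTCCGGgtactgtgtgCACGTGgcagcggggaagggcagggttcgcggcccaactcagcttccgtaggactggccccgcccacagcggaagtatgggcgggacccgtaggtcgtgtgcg
The last sequence shows the CARE in capitals (TTGCATCA on the other strand) at the gene of the threonyl-tRNA synthetase, at chr15:11399666-11399815 (minus strand) for Tars.
Tars upstream: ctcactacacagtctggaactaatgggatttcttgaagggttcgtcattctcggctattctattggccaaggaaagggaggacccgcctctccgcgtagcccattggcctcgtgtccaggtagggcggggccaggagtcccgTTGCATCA

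The strongest of the one-gene promoter sites was at Kansl2, which encodes a subunit of the NSL histone acetyltransferase complex (chr15:98531955-98535109). Its fold was 59.6 in replicate 1 and 74.2 in replicate 2, from 134 and 225 fragments at the summits, with 95% Poisson intervals of 50.1 to 70.6 and 64.9 to 84.6. Next came Cic (chr7:25266844-25269260), which encodes Capicua, a repressor of ETS factor genes that is switched off by MAP kinase signalling, with folds of 55.2 and 72.9. Ppp1r15b, encoding the phosphatase subunit that removes the stress mark from eIF2α, had folds of 50.4 and 64.1. The site of 0610009B22Rik followed with 48.6 and 63.4 (chr11:51687413-51690626). At Mnt, which encodes a MAX partner that opposes MYC, the folds were 46.8 and 69.6 (chr11:74828956-74833333). These 5 sites had the highest lower folds, and replicate 2 was higher at each of them. Such intervals cover counting error only.

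The 25 leading sites ranged in fold from 36.2 to 59.6 in replicate 1 and from 36.5 to 74.2 in replicate 2, and their genes serve many basic cell functions. Those of protein synthesis were Rpl30 (42.9 and 46.0), a ribosomal protein, Rack1 (39.8 and 45.3), a scaffold on the small ribosomal subunit, Gtpbp4 (38 and 38.4), a nucleolar GTPase of ribosome assembly, and Iars (36.2 and 38.8), the isoleucyl-tRNA synthetase. Genes of RNA handling were Tnrc6b (38.4 and 56.5), a microRNA silencing factor, Rbm15 (38.4 and 57.2), part of the complex that methylates adenosine in RNA, and Pcbp1 (38 and 46.3), an RNA-binding protein. Metabolic genes were Pemt (46.0 and 49.9), which makes phosphatidylcholine, Fasn (36.2 and 54.9), the fatty acid synthase, and Aldh18a1 (38.4 and 36.5), an enzyme of proline synthesis. Ensa (40.6 and 56.8) encodes an inhibitor of the phosphatase PP2A, Kat7 (36.7 and 45.7) a histone acetyltransferase, Cand1 (39.3 and 47.0) an exchange factor of cullin ubiquitin ligases, Gpsm2 (37.1 and 39.4) a spindle orientation protein, and Hsph1 (36.2 and 41.7) a chaperone. The remaining leaders were Laptm4a (42.0 and 50.9), Capn10 (40.2 and 45.3), Slc35f5 (43.7 and 39.1), Tbl2 (37.1 and 52.9) and 4931428F04Rik (36.2 and 49.0). Replicate 2 had the higher fold at 23 of the 25, all but Slc35f5 and Aldh18a1, and the counting intervals of the replicates were apart at 4 of them, namely Mnt, Tnrc6b, Rbm15 and Fasn.

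**Figure D1:**
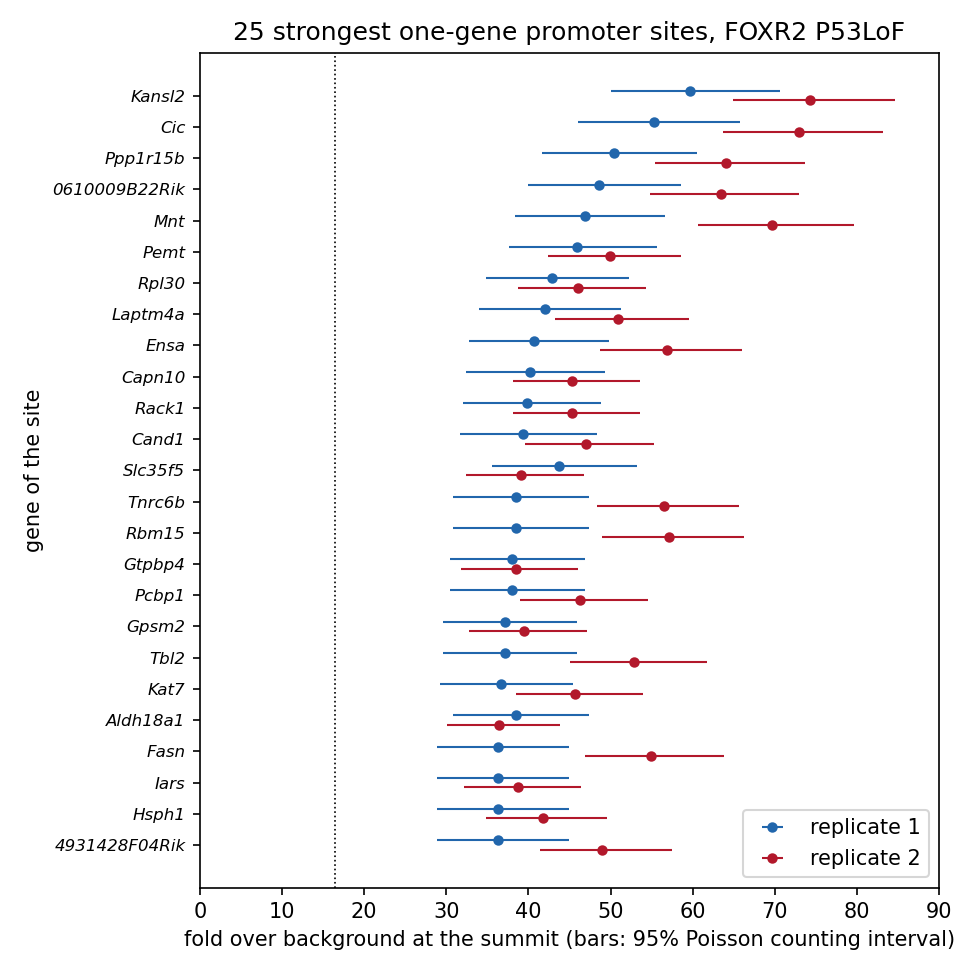
Fold over background at the summit (x axis, a ratio) for the 25 strongest one-gene promoter sites (y axis, by gene) in FOXR2 P53LoF replicate 1 (blue) and replicate 2 (red), with 95% Poisson counting intervals as bars and the limit for the strongest sites as a dotted line. All 25 sites lie above 36 in both replicates, and Mnt, Tnrc6b, Rbm15 and Fasn are the 4 whose intervals do not overlap.

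Over all 706 sites the fold ran from 16.8 to 59.6 in replicate 1, with a median of 20.3, and from 16.8 to 74.2 in replicate 2, with a median of 24.97. These values chose the sites, and are given as a description. The median number of fragments at the summit was 45 in replicate 1 and 75 in replicate 2, and the fewest were 37 and 50. Replicate 2 was higher at 603 of the 706 sites (85.4%), against 72.4% of the other one-gene sites, and the median ratio of replicate 2 to replicate 1 was 1.20. The counting intervals were apart at 46 sites, with replicate 2 higher at each. Across the 706 sites the Spearman correlation of the 2 folds was 0.675, and across all 5925 one-gene sites it was 0.798. Both describe sites of the same 2 libraries and carry no test. The 706 were chosen on these same folds, which narrows their range, so the 2 correlations cannot be compared. The replicates differed most at Tomm40, a gene of the mitochondrial import pore (19 and 42.1), Lsm4, of the splicing machinery (24.3 and 48.3), and Fbxl19, which encodes a CpG-binding protein (21.7 and 42.4). In the other direction were Gon4l (27.8 and 21.03), Trim41 (31.4 and 24.6) and Chka, the choline kinase (21.2 and 16.8), and at these 3 the intervals overlapped. At Gon4l the replicate 1 summit lay 3252 bp upstream of the start and that of replicate 2 only 214 bp upstream, so the 2 folds were read at different places. A summit fell outside the bases shared by both replicates at 4 of the 706 sites.

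**Figure D2:**
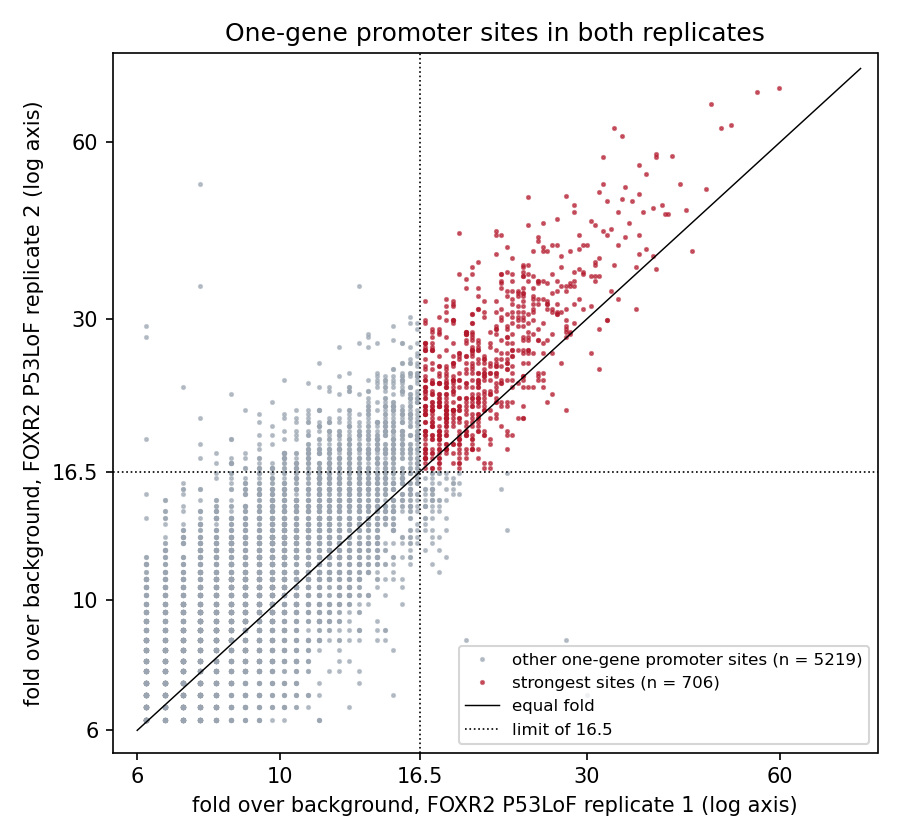
Fold over background in FOXR2 P53LoF replicate 1 (x axis) and replicate 2 (y axis), both log axes, for the 706 strongest sites (red) and the other 5219 one-gene promoter sites (grey), with a line of equal fold and dotted lines at the limit. The strongest sites fill the upper right corner by definition, and 603 of them lie above the line of equal fold.

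At the limit the folds of sites inside and outside were nearly the same, since 1 fragment at the summit is the step between them. Sites tied just inside had a lower fold of 16.8 and included those of Snrpe, Cdk5r1, Rsl1d1, Rps6ka2, Ticam1 and Chka. The 7 tied just outside had a lower fold of 16.4 and were those of Zfhx2, Nipbl, Arfip1, Gfpt1, Zfp958, Nr2f1 and Usp34. Replicate 1 was above the limit at each site named, from 17.2 at Cdk5r1 to 22.5 at Usp34, so their side was set by replicate 2. The lowest −log10 q among the 706 was 37.5 in replicate 1 and 47.65 in replicate 2.

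The summits of the strongest sites flanked the start of the gene and were rare on it. In replicate 1, 416 summits lay downstream of the start and 289 upstream, and that of Ing1, which encodes a chromatin reader, on the start itself. Bins of 50 bp held 84 genes each (11.9%) at 100 to 150 bp and at 150 to 200 bp downstream and 46 at 250 to 300 bp upstream, while the last 50 bp before the start held 2 and the first 50 bp after it 12. The median distance was 182 bp for summits downstream and 319 bp for summits upstream, counted over sites with a replicate 1 summit within 1000 bp. The other one-gene sites had the same shape, with medians of 209 bp and 277 bp. The replicate 1 summit lay over 1000 bp from the start at 56 of the strongest sites (7.93%) and at 7.30% of the others, and both summits did so at 51 of the strongest. Within 100 bp of the start were 7.79% of summits of the strongest sites and 8.51% of the others, and within 500 bp 79.5% and 79.4%. Upstream summits were 40.9% of the strongest and 34.4% of the others. The annotation placed the replicate 1 summit outside the gene at 289 sites, in an untranslated exon at 169, in an intron or an exon of another transcript at 178 and in a coding exon at 70.

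**Figure D3:**
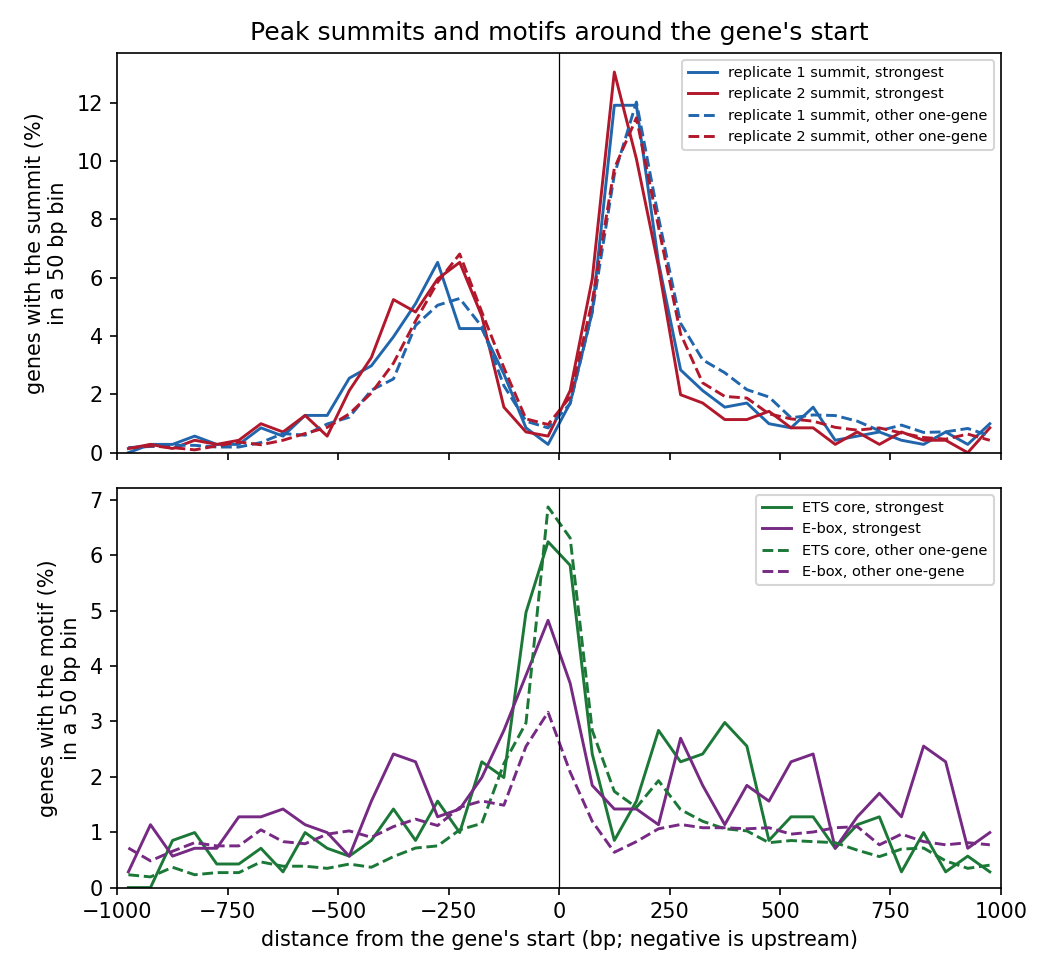
Percentage of genes (y axes) with a peak summit (upper panel) or a motif match (lower panel) in each 50 bp bin of distance from the gene's start (x axis, bp, negative upstream), for genes of the strongest sites (solid lines) and of the other one-gene sites (dashed lines). Summits of both replicates form 2 humps on either side of the start, the downstream one reaching 11.9% in replicate 1 and 13.05% in replicate 2, while ETS cores and E-boxes peak at the start itself.

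The summits of the 2 replicates were a median of 35 bp apart at the strongest sites and 102 bp apart at the other one-gene sites. They were within 50 bp of each other at 64.5% of the strongest sites against 34.5% of the others, and over 500 bp apart at 4.82% against 15.9%. Both lay on the same side of the start at 660 sites (93.5%), against 78.7% of the others. The strongest sites were selected on fold and so have more fragments at the summit (medians above), and the part of that in this contrast was not tested. Atf4, which encodes the transcription factor of the integrated stress response, is an example of opposite sides: its summits lay 257 bp upstream in replicate 1 and 620 bp downstream in replicate 2, with folds of 20.8 and 21.7. The strongest sites were also longer, with a median of 2668 bp against 1747 bp. The start itself was covered by 98.7% of them and 91.7% of the others. The part of the fold that chose the sites in their length and coverage was not tested.

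By sequence the strongest sites were ordinary CpG-rich promoters. In windows of 100 bp to each side of the point midway between the replicate summits, the median GC content was 61.7% and the median CpG ratio (observed over expected) 0.780, against 63.2% and 0.774 at the other one-gene sites. The replicate summits were within 100 bp of each other at 81.02% of the strongest and 49.8% of the others, so the midpoint is away from a summit more often at the others. On the replicate 1 summit itself the median GC content was 61.2% and 62.2%. In windows of 100 bp to each side of the start, 84.7% of the strongest and 82.3% of the others were CpG-rich (GC above 50% and CpG ratio above 0.6), against 13.95% of the 10168 genes with no peak near the start. The TATA box TATAAA was present in 3.69% of the start windows of the strongest sites, 3.24% of the others and 13.3% of the genes with no peak. The SP1 site GGGCGG stood in 64.1%, 63.1% and 17.2% of them. On these counts the strongest sites lay close to the other one-gene sites and far from genes without a peak.

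The ETS core CCGGAAG was about as frequent at the start of the strongest as of the other one-gene sites. In windows on each replicate's own summit, added after the data were seen, it was more frequent at the strongest. On the replicate 1 summit it was found at 7.38% of the strongest (Wilson 95% interval 5.67 to 9.55) and 4.77% of the others (4.23 to 5.38), and on the replicate 2 summit at 8.23% (6.42 to 10.49) and 5.16% (4.59 to 5.79). Replicate summits were a median of 35 bp apart at the strongest and 102 bp apart at the others, and the part of this in the contrast was not tested. In the midpoint windows, the setting planned, the intervals for the core overlapped. There it was found in 60 of 705 strongest sites on assembled chromosomes (8.51%, Wilson 95% interval 6.67 to 10.8), against 7.34% of the other one-gene sites (6.66 to 8.08), 10.8% of sites near the starts of several genes and 2.27% of sites near no start. In the start windows the intervals overlapped, at 17.02% (14.4 to 19.97) and 16.46% (15.5 to 17.5), beside 2.39% of genes with no peak and 9.59% of all protein-coding genes. Centred over 200 and up to 400 bp downstream of the start, it was found at 9.65% of the strongest (7.68 to 12.05) and 5.34% of the others (4.76 to 5.99), while over 500 and up to 700 bp downstream the intervals overlapped (4.26%, 2.997 to 6.01, against 3.03%, 2.60 to 3.53). The 66 cores in the midpoint windows comprised 37 on the strand of the gene. With the one-gene sites in 10 equal bins of lower fold, the share of start windows with the core moved between 13.6% and 19.7% with no order. The forkhead core GTAAACA was rare, in 1.13% of the midpoint windows of the strongest sites, 1.44% of the others and 2.71% of sites near no start.

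Where an ETS core lay close to the start, the summit lay away from it. Single ETS cores centred within 100 bp of the start were present at 102 genes of the strongest sites, and the median distance from the replicate 1 summit to the core was 209 bp. None of the 102 summits was within 50 bp of the core, which allows a share of up to 2.94%, and in replicate 2 it was 1 of 102. The same held for 85 genes with a single E-box near the start, with a median distance of 226 bp and 0 of 85 summits within 50 bp in replicate 1, which allows up to 3.53%, and 2 of 85 in replicate 2. At the other one-gene sites the replicate 1 summit was within 50 bp of the core at 1.94% of 720 genes and within 50 bp of the E-box at 1.52% of 394. The median distances there were 224.5 bp and 221.5 bp. In the same 102 genes the median distance from the replicate 1 summit to the start itself was 209.5 bp, and in the 85 genes it was 220.0 bp.

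Of 22 motifs searched on both strands, 4 had shares at the start whose intervals did not overlap between the strongest and the other one-gene sites. They were the E-box, the CARE and CCAAT, higher at the strongest, and the NRF1 site, lower. The intervals make no allowance for the number of motifs searched. The CARE was added after the data were seen and rests on 5 genes of the strongest sites and 7 of the others. The E-box CACGTG was present in the start windows of 88 of 705 genes of the strongest sites (12.5%, Wilson 95% interval 10.2 to 15.1) and in 8.24% of the others (7.52 to 9.02). The share was 3.26% in genes with no peak near the start and 5.68% in all protein-coding genes. In the 10 bins of lower fold it was 6.11% in the lowest and between 7.30% and 9.01% in the next 7, then 12.4% and 12.9% in the highest pair. Within 3 classes of GC content of the start window, from low to high, it was 12.0% against 7.25%, 14.7% against 9.23% and 10.6% against 8.21%. On the replicate 1 summit the E-box stood at 7.52% of the strongest (5.79 to 9.70) and 4.94% of the others (4.39 to 5.57), while on the replicate 2 summit (7.09% and 4.81%) and in the midpoint windows (7.66% and 6.09%) the intervals overlapped. The SOX core ACAAAGG had intervals apart in the midpoint windows, at 5.11% against 3.05%, and on the replicate 1 summit, at 4.97% against 2.99%. On the replicate 2 summit its intervals overlapped, at 3.83% against 3.01%. The CRE TGACGTCA had intervals apart in the midpoint windows, at 0.142% (1 of 705) against 1.09%, but stood at 0.284% against 0.307% on the replicate 1 summit. Away from the start, E-box matches centred over 200 and up to 400 bp upstream were found at 7.23% of the strongest (5.55 to 9.39) and 4.71% of the others (4.16 to 5.32), and those at the same distance downstream at 6.38% and 4.21%. Such differences in the flanks were not limited to the E-box: besides the ETS core, the CRE over 200 and up to 400 bp downstream stood at 1.42% against 0.386%, and the NRF1 site over 500 and up to 700 bp downstream at 1.28% against 0.328%, both with intervals apart. Of the E-boxes printed above, those of Laptm4a, Pcbp1, Aldh18a1 and Iars lie within 100 bp of the start, and those of Cic, Mnt, Rplp2 and Cdk7 lie further upstream and are not part of the share at the start. The same holds for Per1, a clock gene, with an E-box that begins 150 bp upstream. CCAAT, the NF-Y site, stood in 35.3% of start windows of the strongest and 30.1% of the others. The NRF1 site GCATGCGC went the other way, with 2.84% of start windows (1.84 to 4.34) against 5.40% (4.82 to 6.05), and from 6.96% in the lowest bin to 2.89% in the highest. No set test was made, because the motifs were looked at with earlier results known.

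**Figure D4:**
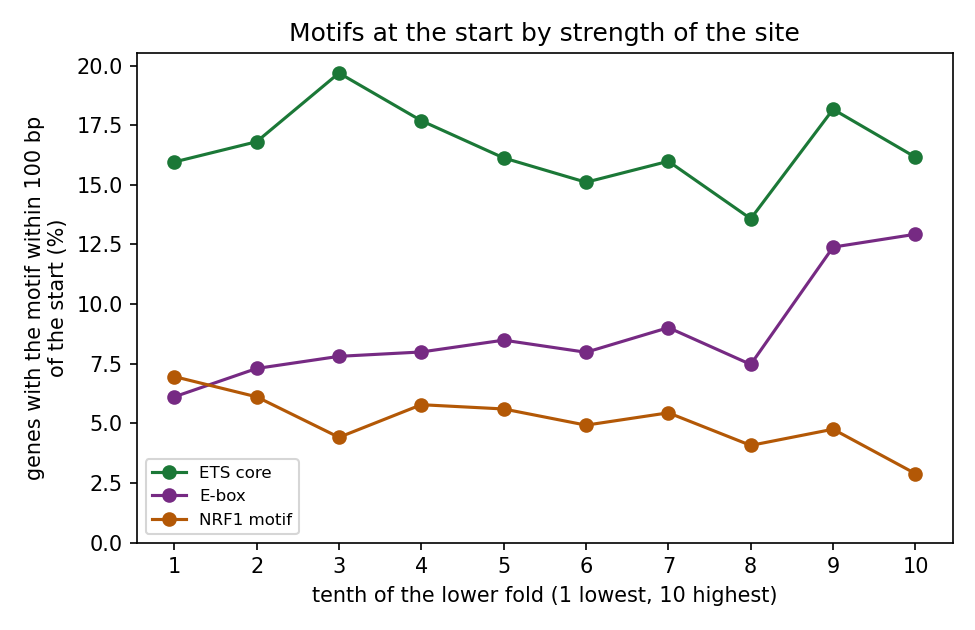
Percentage of genes with a motif within 100 bp of the start (y axis) in 10 equal bins of the lower fold of the one-gene promoter sites (x axis, 10 is highest), for the ETS core (green), the E-box (purple) and the NRF1 motif (brown). The E-box line steps from 7.47% in bin 8 to 12.4% in bin 9, the NRF1 line falls from 6.96% to 2.89%, and the ETS line shows no order.

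Genes of tRNA charging and amino acid supply were frequent among the strongest sites. Of 37 aminoacyl-tRNA synthetase genes, 25 had a one-gene promoter site and 12 of those were among the strongest (48.0% of genes with a site, against 12.0% of all genes with a site). They were Iars (36.2 and 38.8), Wars2 (31.4 and 38.1), Eprs (25.2 and 27.6), Mars, Tars, Lars, Farsb, Sars, Gars, Vars, Aars and Dars, the last with 16.8 and 17.1. Of 36 genes of amino acid synthesis and transport, a list added after the values were seen, 28 had a site and 14 were among the strongest. These held the serine and glycine enzymes Phgdh (20.3 and 22.01), Psph (21.7 and 23) and Shmt2 (19.4 and 19.1), the asparagine synthetase Asns (26.5 and 31.2) and the transporters Slc1a4 (26.5 and 33.2) and Slc7a5 (20.8 and 25.3). Of 18 genes of the integrated stress response, the pathway that lowers translation when eIF2α is phosphorylated, 12 had a site and 5 were among the strongest: Ppp1r15b, Asns, Atf6 (23.9 and 24.0), Ddit4 (21.7 and 24.3) and Atf4. The CARE, a motif added after the data were seen, was present in the start windows of only 5 genes of the strongest sites (0.709%, 0.303 to 1.65) and 0.135% of the other one-gene sites. Its share was 0.602% over all genes. In genes with no peak near the start it was 1.07%, which lies within the interval of the strongest sites. The 5 were Ppp1r15b, Iars, Tars, the neutral amino acid transporter gene Slc1a4 and the collagen receptor gene Ddr2, of which 4 belong to the groups just described.

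The machinery of transcription and RNA was represented by smaller shares. Among hnRNP and SR splicing factors 13 of 36 genes with a site were among the strongest, led by U2af2 (30.05 and 40.1), Hnrnph1 (29.2 and 36.5) and Hnrnpul1 (28.7 and 47.0). For cytoplasmic ribosomal proteins it was 13 of 57, led by Rpl30 and Rplp2 (35.8 and 36.8), and for translation factors 11 of 41, led by Eif3b (33.1 and 37.1). RNA polymerase, TFIID and Mediator genes gave 10 of 51. Mitochondrial ribosomal proteins gave 3 of 29 (10.3%), the respiratory chain 2 of 34 (5.88%) and the replication machinery 1 of 26 (3.85%), beside 12.0% of all genes with a site. These shares leave out sites near the starts of several genes, which were present at 33, 29 and 12 genes of these 3 groups. Such sites passed the same limit at 23.5%, so the shares do not describe all bound promoters of a group. Without replicate 1, when 1256 sites pass, the mitochondrial ribosomal and replication counts were 8 and 3.

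Chromatin and transcription factor genes included several of the highest sites, and their counts are to be read beside the 12.0% of all genes with a site. Histone methyltransferases and demethylases gave 8 of 37 genes with a site, led by Setd5 (34.02 and 47.97), Kmt2e (31.4 and 35.5) and Kdm3a (27.4 and 34.2), and Ezh2, the catalytic subunit of Polycomb repressive complex PRC2, had 17.7 and 21.4. HP1, Polycomb and NSL genes gave 5 of 24, which were Kansl2, Cbx8 (23.9 and 26.3), Hcfc1, Phf20 and Kansl1l. Of 14 PAR bZIP and clock genes, 11 had a site and 6 were among the strongest: Nr1d2 (30.9 and 35.5) and Nr1d1 (20.8 and 24.0), which encode the REV-ERB repressors, Per1 (23.9 and 31.5), Dbp (20.8 and 25.6), Cry1 (18.6 and 21.7) and Nfil3 (18.1 and 20.7). ETS factors and Capicua gave 4 of 8, namely Cic, Elf2 (19.9 and 30.6), Etv6 (19.9 and 18.1) and Erf (17.7 and 23.3). In the MYC and MAX network 2 of 11 were among the strongest, Mnt and Mxd3 (18.6 and 23.3). Foxo3 (27.4 and 25.3) was the only one of 13 forkhead genes with a site, and Sox12 and Sox4 were 2 of 8 SOX and NFI genes. Several counts rose by over 1.5 times when replicate 1 was left out, a setting in which the share over all one-gene sites was itself 18.97%: to 13 for histone methyltransferases and demethylases, 9 for HP1, Polycomb and NSL genes, 6 for the MYC and MAX network, 3 for forkhead and 4 for SOX and NFI genes. None of the genes for kinesins (23 with a site), voltage-gated ion channels (12), neurotransmitter receptors (5), Hox proteins (3), interneuron and ganglionic eminence patterning (3) or oligodendrocytes and glia (11) was among the strongest, which in groups this small says little beside a share of 12.0%, and without replicate 1 there was 1 kinesin, 1 ion channel and 1 glial gene. None of 1094 olfactory receptor genes had a one-gene site. Several groups not named above lay near 12.0%. Zinc finger genes gave 23 of 217 (10.6%), cyclins and their kinases 4 of 32 (12.5%), protein phosphatase subunits 5 of 40 (12.5%) and GTPase regulators 7 of 71 (9.86%). The 36 groups left 512 of the 706 genes unassigned. The groups were drawn up with earlier results of these data known, so their counts are descriptions.

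The strongest sites were spread unevenly over the chromosomes. Chromosome 11 held 126 of them, 17.8% of the 706, while it held 10.1% of all one-gene sites. The share of one-gene sites that were among the strongest was 21.1% there, 17.9% on chromosome 13, 17.5% on chromosome 3, 15.8% on chromosome 15 and 15.3% on chromosome 6. It was 4.65% on chromosome 12 and 4.05% on the X chromosome. The median fold of all one-gene sites was also high or low on the chromosomes at either end: 11.5 and 13.5 (replicates 1 and 2) on chromosome 11 and 11.9 and 13.1 on chromosome 13, against 8.84 and 9.86 on chromosome 12 and 8.17 and 8.71 on X. A fold compares a summit with 1 background for the whole library, so more copies of a chromosome and stronger binding on it cannot be told apart. With each fold divided by the level of its chromosome, 621 sites passed the limit, and the share on chromosome 11 was 11.6% of them. E-boxes at the start were found at 13.6% of the strongest (10.3 to 17.6) and 7.04% of the others (5.86 to 8.43) on chromosomes 3, 6, 11, 13 and 15. On the rest they were found at 11.5% (8.60 to 15.15) and 8.75% (7.87 to 9.71), with overlapping intervals.

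**Figure D5:**
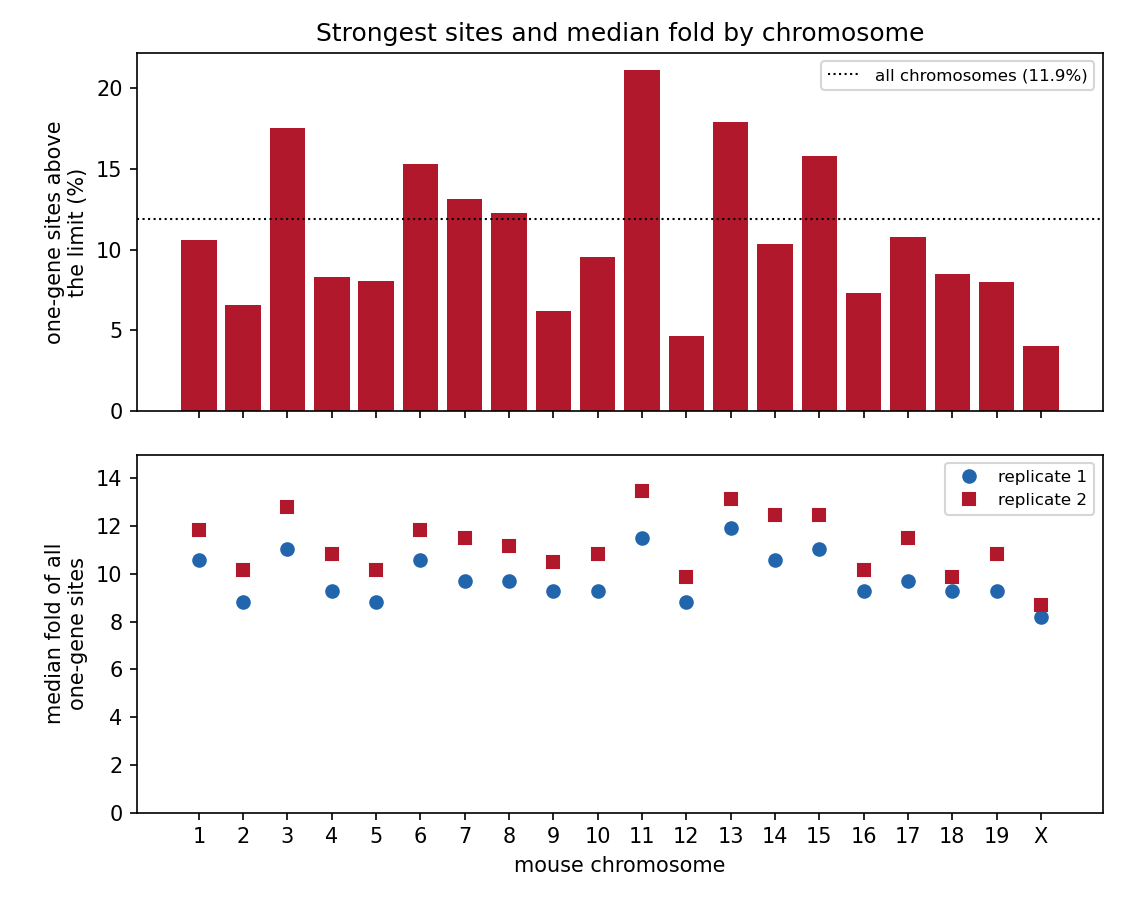
Share of one-gene promoter sites above the limit (upper panel, y axis in %, dotted line at 11.9% for all chromosomes) and median fold of all one-gene sites in each replicate (lower panel, y axis a ratio) by mouse chromosome (x axis). Chromosome 11 has the tallest bar at 21.1% and the X chromosome the shortest at 4.05%, and chromosomes 11 and 13 have the highest replicate 1 medians and X the lowest, while chromosomes 1 and 6, with equal medians, differ in share.

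The rule had removed peaks that overlap a control peak, so distance to control peaks is given as a description only. A control peak lay within 10 kb of 2 of the 706, those of Tuba1b and Nol11, each at 7912 bp, and within 100 kb of 16. Their folds were 26.1 and 27.6 at Tuba1b, a tubulin gene, and 19.4 and 24.6 at Nol11, a gene of ribosomal RNA synthesis.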

How the data were processed

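Peaks were used from 4 CUT&RUN libraries, 2 FOXR2 P53LoF and 2 G34R control. Per the submitters' processing notes and the methods, the authors trimmed reads (Trimmomatic 0.39), aligned them to mm10 (BWA 0.7.17), removed duplicates (Picard 2.26.6) and called peaks in each library (MACS2 2.2.7.1), with no input library named. Fold is a deposited ratio: fragments at the summit over the library's background, each raised by 1. Peaks also carry a −log10 p-value, a −log10 q-value and a score, all computed by the authors in each library alone. The background of each library was recovered as the value between 0.3 and 4 that makes folds whole numbers of fragments (within 0.02) matching the deposited p-values: 1.26 and 2.04 in FOXR2 P53LoF, 1.69 and 0.642 in the controls.

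A gene's start is the 5′ end of its protein-coding record in GENCODE M21 (GRCm38, the build of mm10). A site near it overlaps the 1000 bp on either side and carries, per replicate, the fold of the highest peak over it, and the strongest were those above 16.5 in both replicates. Sequence came from the RefSeq copy of GRCm38. Motifs were matched exactly on both strands, a palindrome once, in 201 bp windows centred on the start, on the point midway between the replicate summits or on 1 replicate's summit. Shares carry Wilson 95% intervals and folds exact Poisson 95% intervals, which cover counting error only. Python 3.11.15, scipy 1.17.1 and pysam 0.24.0 were used. Simulated data were used to test the recovered backgrounds, the building of sites, their assignment to genes, the fold limit and motif matching. The other steps had no such check.

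Named were the 25 sites with the highest lower fold, members of fixed gene groups by fold, 5 sites on each side of the limit with sites tied to them and the 3 highest and lowest ratios of the replicates; the CARE genes, Per1 as an E-box example, and the genes near control peaks were named after their values were seen. Members, motifs, groups and lists were chosen with earlier results of these data known. Alternatives varied the limit, the start, the filters, the window and the libraries used. Some items are not reported here. No test was made, since the sites were chosen by fold and sites are not replicates.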

Additional observations from a re-analysis of the deposited data

How the results depend on the processing

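The number of sites depended on the limit: 1171 passed a lower fold of 14 and 357 one of 20, against 706 at the limit used. Leaving out one replicate at a time gave 706 to 1256 sites, 1256 without FOXR2 P53LoF replicate 1, when only replicate 2 had to pass. The other alternatives gave 621 to 1001 sites. The share of midpoint windows with the ETS core was 3.12% with 50 bp and 21.1% with 200 bp to each side of the midpoint between the replicate summits. It was 8.51% with 100 bp, since a wider window holds more bases. The share stayed between 7.13% and 10.1% in the rest, leave-one-out settings included. Windows on 1 replicate's summit, added after the data were seen, gave 7.38% and 8.23%, with the share at the other sites falling from 7.34% to 4.77% and 5.16%. The median distance from start to summit was 255 bp in replicate 1, 240.5 bp in replicate 2, 202 bp to the nearest transcript start and 243 bp at a limit of 14. The E-box share at the start, computed after the data were seen, was 11.7% to 12.7% for the strongest and 7.58% to 8.49% for the other sites under every alternative. With transcript starts, group counts of mitochondrial ribosomal proteins, replication genes and kinesins became 5, 3 and 1, against 3, 1 and 0. Other group counts also moved by over 1.5 times: the integrated stress response from 5 to 3 when a site had to cover at least 50% of a peak in each replicate, hnRNP and SR factors from 13 to 8 with folds divided by the chromosome level, the MYC and MAX network from 2 to 6 without FOXR2 P53LoF replicate 1, and, at a limit of 20, hnRNP and SR factors to 5, translation factors from 11 to 4, ETS factors and Capicua from 4 to 1, and HP1, Polycomb and NSL genes from 5 to 2, among others. Those of aminoacyl-tRNA synthetases, clock genes and amino acid genes did not under any alternative run. No paired analysis was possible because the results come from no test: each is a count, share or position over peaks that both FOXR2 P53LoF libraries share. Peak lists give no read totals, so precision rests on the fragments at each summit.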

Other observations

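Genes of the strongest sites were shorter than those of the other one-gene sites, with a median length of 20.2 kb (quartiles 9.25 and 43.4) against 26.1 kb (11.6 and 62.7). A start of a gene that is not protein-coding, on the opposite strand and within 1 kb upstream, was annotated at 73 of the 706 sites (10.3%, Wilson 95% interval 8.30 to 12.8) and at 8.37% of the others (7.65 to 9.16). Where the replicate 1 summit lay upstream the share was 13.1% against 8.41% where it lay downstream, and at the other one-gene sites it was 11.5% against 6.75%. A second kind of site, inside the gene body and away from the start, was found in 86 genes of the strongest sites (12.2%), against 674 genes of the others (of 5184). Per 100 kb of gene there were 0.462 such sites in genes of the strongest and 0.352 in genes of the others. Sites near the starts of several genes passed the same limit on the lower fold more often (263 of 1120, 23.5%) than one-gene sites did (11.9%), and sites near no start less often (269 of 4902, 5.49%). These shares were not tested.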
